A study of Rattus norvegicus with 6 samples.

Results

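Transcripts of 10 secreted ligands of the transforming growth factor beta superfamily were followed across 6 RNA-seq libraries of rat retinal ganglion cells (RGCs) kept in culture. RGCs are the neurons whose axons form the optic nerve. The members were taken by gene symbol: Bmp2, Bmp3, Bmp4, Bmp5, Bmp6, Bmp7, Gdf10, Gdf11, Inhba and Inhbb. All 10 were found among the 17366 transcripts of the deposited table, which lists 1 transcript per symbol. The Chrdl1 group held 3 libraries of cells that received 1 µg/ml Chrdl1 for 12 h, and the vehicle group held 3 libraries of cells that received 0.1% BSA with 4 mM HCl. Both groups were Sprague Dawley rat cells labelled age P5 and grown for 10 days. Chrdl1, chordin-like 1, is secreted and holds bone morphogenetic proteins (BMPs) away from their receptors, so the comparison asks whether adding it altered transcription in these cells, here of the ligands themselves. Titles end in a code that occurs once in each group, which makes 3 pairs: pair A is RGCtreat052416 with RGCControl052416, pair B is RGCtreat092016 with RGCControl092016, and pair C is RGCtreat092716 with RGCControl092716. What the code means is not labelled, and neither is whether the libraries are of different animals or cultures. The p-values therefore measure only the spread between these libraries, which may be technical.

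The ligands of this superfamily are made as precursors, cleaved by furin-type proteases and secreted as disulphide-linked dimers. BMPs signal through a type I and a type II serine/threonine kinase receptor to Smad1, Smad5 and Smad9, while activins and Gdf11 signal mainly to Smad2 and Smad3. Secreted proteins such as chordin, noggin and follistatin bind the dimers and keep them from their receptors. In the vertebrate retina Bmp4 is known for its part in setting up dorsal identity, and Gdf11 is known in mouse for limiting how many RGCs progenitors produce.

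Depth and identity were checked first. The read totals behind the values, recovered from the steps of the FPKM scale (fragments per kilobase of transcript, scaled to the size of the library), ran from 22870500 to 24198700 in the Chrdl1 libraries and from 14546600 to 26551800 in the vehicle libraries, where the lowest was that of pair B. All 13 RGC marker genes in the table were above the filter, with a summed level of 2258 to 2697 FPKM in the Chrdl1 libraries and of 2422 to 2697 FPKM in the vehicle libraries. The extraction label speaks of visual cortex, unlike the other labels, which name RGC cultures. Gfap, the astrocyte intermediate filament, was at no more than 1.24 FPKM in any library. Between pairs the RGC markers were not alike. The limma F test of the title code, described below, called 9 of 13 (69.2%), against 47.4% of all tested transcripts. Nor were the pairs alike in other cells' markers. Summed over 14 microglia and macrophage markers, the Chrdl1 libraries held 339.9 (pair A), 25.9 (pair B) and 434 FPKM (pair C) and the vehicle libraries 407, 47.4 and 490.5 FPKM. Grm6 and Crx, genes of bipolar cells and photoreceptors, were at 12.7 and 45.5 FPKM in the Chrdl1 library of pair C and at 11.3 and 44.4 FPKM in its vehicle library, and at no more than 4.88 FPKM in any library of the other pairs. The libraries of pair C stand apart in bipolar and photoreceptor genes, and those of pair B in low microglial genes. The RNA was bulk, so fewer cells of a type and less RNA per cell cannot be told apart.

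Gdf11 was the most abundant of the 10 ligand transcripts and the steadiest. Gdf11 (growth differentiation factor 11) lies on the minus strand of rn6 at chr7:3306863-3315856, and no other transcript of the table overlaps the locus of any of the 10 members. It was at 29.9, 27.8 and 33.3 FPKM in the Chrdl1 libraries of pairs A, B and C, against 30.1, 28.1 and 32.2 FPKM in the vehicle libraries. All 6 libraries lay within a factor of 1.20 of each other, with both libraries of pair C on top, and the groups overlapped. A lower mean was found for 85.8% of all transcripts, and Gdf11 alone made up 54.4% to 59.5% of the summed FPKM of the 10 ligands in the Chrdl1 libraries and 53.2% to 59.2% in the vehicle libraries. With 1638 to 3424 reads per library, its counting error was small: the 95% exact Poisson interval of its lowest library ran from 26.7 to 28.9 FPKM. Intervals of this kind cover counting error only.

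Among the BMPs Bmp7 had the highest mean, and each BMP was below Gdf11 in every library. Bmp7, a ligand known for roles in eye and kidney development, was at 5.60, 8.78 and 5.91 FPKM in the Chrdl1 libraries of pairs A, B and C, against 6.83, 8.40 and 5.53 FPKM in the vehicle libraries. Both libraries of pair B were above the other 4. Bmp4 was at 4.59, 0.743 and 5.86 FPKM in the Chrdl1 libraries, against 3.76, 1.30 and 6.06 FPKM in the vehicle libraries. Its low values were both in pair B, where they rested on 26 and 29 reads, and its high ones both in pair C. Bmp2, a close relative of Bmp4, was at 1.69, 1.58 and 3.68 FPKM in the Chrdl1 libraries, against 2.10, 1.049 and 4.96 FPKM in the vehicle libraries, again with both libraries of pair C on top. Bmp6 ran the other way, with 3.68, 2.02 and 1.75 FPKM in the Chrdl1 libraries, against 3.32, 2.36 and 1.62 FPKM in the vehicle libraries, so that pair A was highest and pair C lowest in both groups. Bmp3, which is known to oppose the activity of other BMPs in bone, was at 1.09, 1.83 and 1.38 FPKM in the Chrdl1 libraries, against 1.06, 1.92 and 1.24 FPKM in the vehicle libraries. As with Bmp7, its highest 2 values were those of pair B.

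The activin subunits differed from each other in how they varied. Inhba encodes the beta A subunit, which forms activin A as a homodimer, and is known to respond to neuronal activity. It was at 3.07, 4.72 and 4.41 FPKM in the Chrdl1 libraries of pairs A, B and C, against 3.80, 3.73 and 3.41 FPKM in the vehicle libraries. The Chrdl1 libraries held both its lowest and its highest values. Inhbb, which encodes the beta B subunit of activin B, was at 0.536, 0.168 and 4.64 FPKM in the Chrdl1 libraries, against 0.524, 0.441 and 4.96 FPKM in the vehicle libraries. It was highest in pair C: 350 and 410 reads were found there in the Chrdl1 and vehicle library, against 12 to 40 reads in each of the other 4 libraries. Inhba was above Inhbb in 4 of 6 libraries, and the exceptions were the 2 of pair C.

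The last 2 members were near or at the limit of detection. Gdf10 (also called BMP3B) was at 0.136, 0.040 and 0.338 FPKM in the Chrdl1 libraries of pairs A, B and C, against 0.019, 0.094 and 0.565 FPKM in the vehicle libraries, with no more than 7 reads outside pair C and 18 and 33 reads within it. Bmp5 had 0 reads in all 3 Chrdl1 libraries, against 1, 2 and 0 reads in the vehicle libraries. The exact 95% interval of 0 reads reached 0.0436 FPKM in the Chrdl1 library of pair B, and the highest vehicle value was 0.037 FPKM. A difference in Bmp5 was not detectable at this depth.

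**Figure D1:**
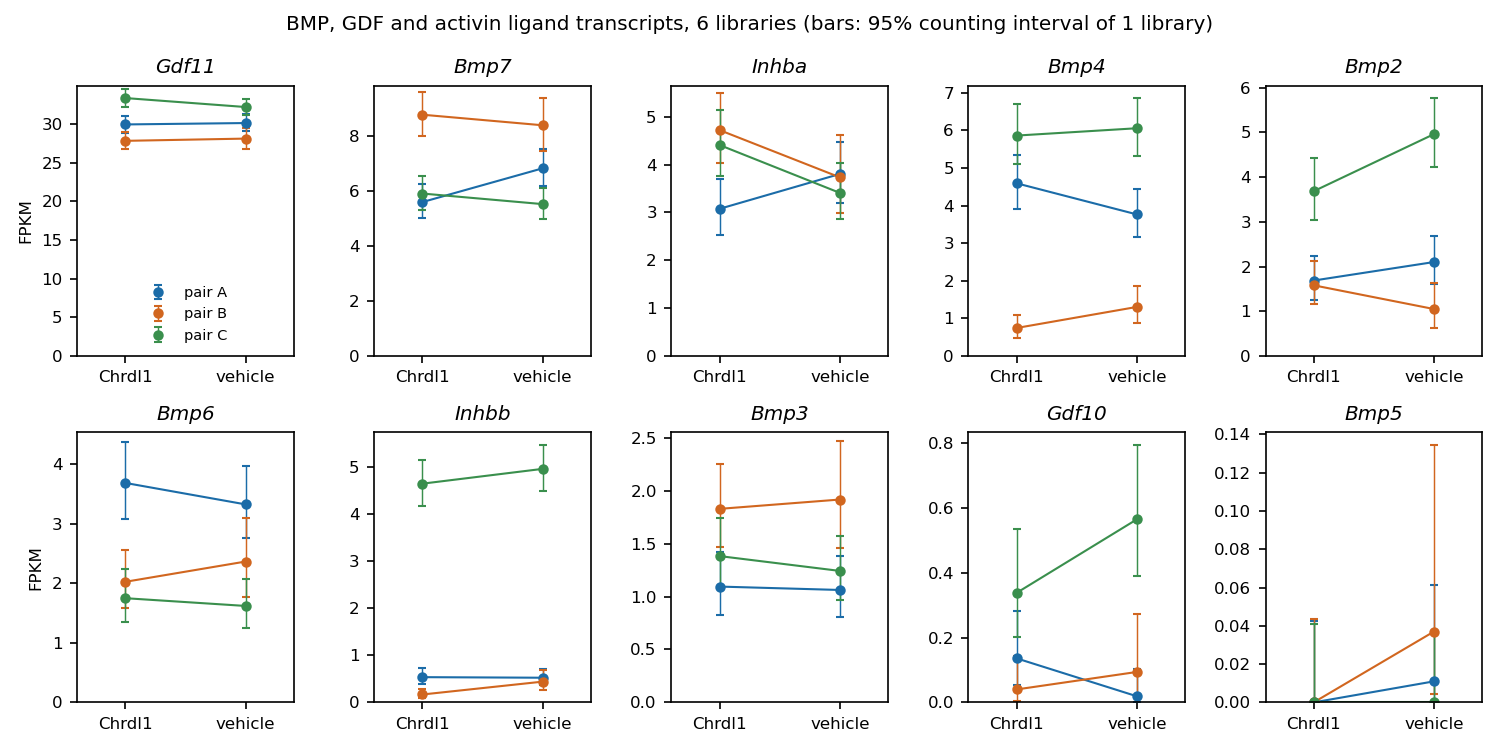
FPKM (vertical axes, each from 0) of the 10 ligand transcripts in the Chrdl1 and vehicle libraries; lines connect the 2 libraries sharing a title code, and bars are the exact 95% counting interval of each library. The groups overlap in every panel, while pair C stands above the others for Inhbb (4.64 and 4.96 FPKM) and pair B stands below them for Bmp4 (0.743 and 1.30 FPKM).

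Ordered by mean FPKM over the 6 libraries, which sets levels per length of transcript, the ligands ran Gdf11, Bmp7, Inhba, Bmp4, Bmp2, Bmp6, Inhbb, Bmp3, Gdf10 and Bmp5. The upper steps were clear. Gdf11 was above Bmp7 and Bmp7 above Inhba in 6 of 6 libraries each, without overlap of their ranges, at mean levels of 30.2, 6.84 and 3.86 FPKM. The middle of the order was not: Inhba was above Bmp4 in 3 of 6 libraries and Bmp2 above Bmp6 in 2 of 6, and the ranges of all neighbours from Inhba to Bmp3 overlapped. Bmp3 was above Gdf10 in 6 of 6 libraries without overlap, at means of 1.42 and 0.199 FPKM.

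The effect of added Chrdl1 on these transcripts was smaller than the spread between libraries for every member tested. Genes were tested with limma on log2(FPKM + 1) if they reached 1 FPKM in at least 3 libraries, which 10390 transcripts and 7 of the 10 ligands did. Fold changes on this scale are Chrdl1 minus vehicle and understate the change of low genes. Of the 10390 transcripts 0 were called at an adjusted p under 0.05 (0%), 0 of the 7 ligands among them, and 18 (0.173%) had an unadjusted p under 0.05. With the title code as a replicate block these counts were 0 and 535 (5.15%), and none of the 7 ligands was called. Limma with voom on the recovered reads called 0 transcripts and had 3 with an unadjusted p under 0.05. The 7 ligands had a median log2 fold change of 0.0087, with 4 positive and 3 negative, where the median over all tested transcripts was -0.028.

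Inhba had the largest estimate among the 7 ligands and the smallest unadjusted p, 0.548. It averaged 4.07 ± 0.874 FPKM in Chrdl1 libraries and 3.65 ± 0.210 FPKM in vehicle libraries (SD, n = 3 each). Its log2 fold change was 0.11 ± 0.18 (SE), with a limma adjusted p of 0.9998. It was lower with Chrdl1 in pair A (-0.24) and higher in pairs B and C (0.27 and 0.30). The block reduced the SE to 0.13 and left an interval from -0.16 to 0.38. Bmp4 averaged 3.73 ± 2.67 FPKM in Chrdl1 libraries and 3.71 ± 2.38 FPKM in vehicle libraries (SD, n = 3 each), and its log2 fold change was -0.070 ± 0.60. Its 95% interval spanned -1.50 to 1.36, and the block narrowed it to -0.36 to 0.21, that is 0.782 to 1.16 times FPKM + 1. Bmp2 was at -0.074 ± 0.42, with an interval from -0.38 to 0.23 under the block, and Bmp6 at 0.011 ± 0.28, with an interval from -0.25 to 0.27 under the block. Bmp7 was at -0.035 ± 0.21 and Bmp3 at 0.022 ± 0.21, each with estimates of both signs among the pairs. Gdf11, the most precisely measured, was at 0.0087 ± 0.10, and its interval under the block, from -0.13 to 0.15, was the narrowest of the 7. A p that misses the threshold does not show that the levels were equal; these intervals give the sizes that these libraries leave possible.

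No ligand moved in the same direction in all 3 pairs. Over all tested transcripts 27.1% did, 7.55% being higher and 19.5% lower with Chrdl1. In each of the 10 ligands the Chrdl1 and vehicle ranges overlapped, where 2.44% of the tested transcripts had ranges that did not (0.577% with all Chrdl1 libraries above and 1.87% with all below). For the 3 members below the filter the fit without a filter gave log2 fold changes of -0.12 ± 0.78 for Inhbb, -0.047 ± 0.18 for Gdf10 and -0.023 ± 0.031 for Bmp5. Bmp2 had opposite signs in pair B (0.33) and in pairs A and C (-0.21 and -0.35), and Bmp4 in pair A (0.23) and pair B (-0.40).

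**Figure D2:**
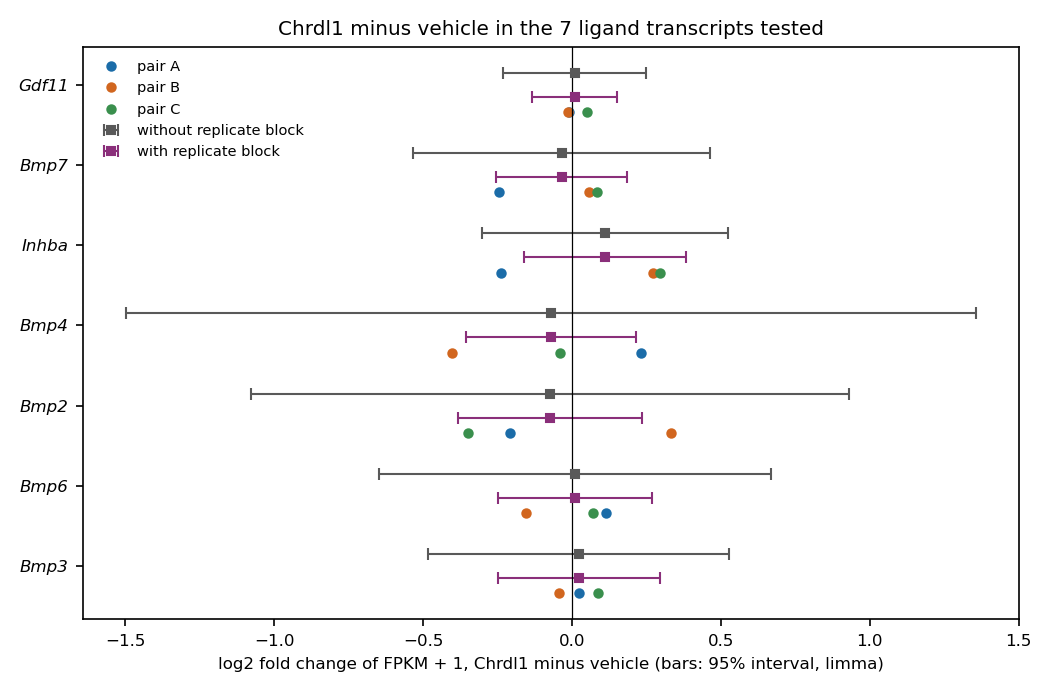
Log2 fold change of FPKM + 1, Chrdl1 minus vehicle (horizontal axis), of the 7 ligand transcripts tested; squares with bars are limma estimates with 95% intervals, without and with the replicate block, and circles are the 3 pairs. All intervals include 0, and each ligand has pairs on both sides of it; the interval of Bmp4 runs from -1.50 to 1.36 without the block and from -0.36 to 0.21 with it.

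The ligands differed far more between the title codes than between Chrdl1 and vehicle. For 6 of the 7 tested ligands 89.3% to 97.8% of the variance of log2(FPKM + 1) lay between the codes, beside 0.028% to 0.56% for treatment. With the sums of squares of all tested transcripts pooled, the shares were 88.9% and 3.91%. The transcripts that vary most weigh most in that pool, so it is not the share of a typical transcript. With 3 codes and 2 groups, a somewhat larger share for the codes is built in. Inhba was the exception, with 33.9% between codes, 11.1% for treatment and 55.1% left over. A limma F test of the code, with treatment as the other term, called 47.4% of all tested transcripts at an adjusted p under 0.05. Of the 7 ligands 4 were called: Bmp4 (adjusted p = 5.3e-06), Bmp2 (0.00039), Bmp6 (0.0037) and Bmp7 (0.010). That share was 57.1%. The background itself fell to 30.07% without the Chrdl1 library of pair A and to 31.67% without the vehicle library of pair A, where 3 and 4 of the 7 ligands were called, so nothing particular to the ligands is read from their count. Bmp3 (0.058), Gdf11 (0.091) and Inhba (0.41) were not called.

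Some ligands had wide ranges. The median tested transcript had a range of 0.31 between its 3 pair means of log2(FPKM + 1). The range of Bmp4 was 1.80 and that of Bmp2 1.20, wider than those of 97.3% and 94.7% of tested transcripts. Bmp6 spanned 0.75, Bmp7 0.51 and Bmp3 0.47. Inhba and Gdf11 spanned 0.23 and 0.22, narrower than most: 33.6% and 30.9% of tested transcripts had a smaller range.

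**Figure D3:**
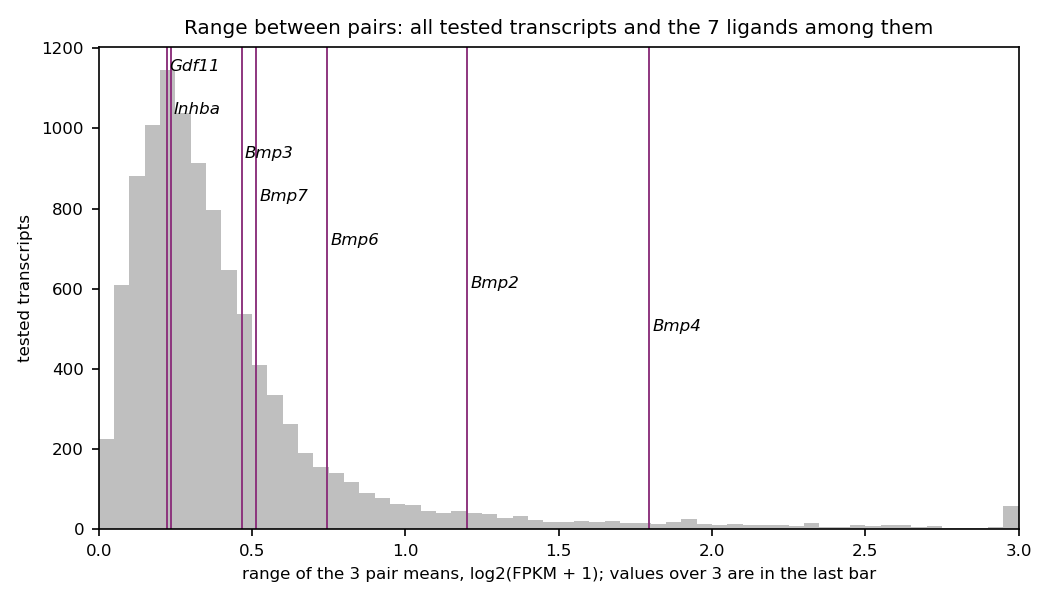
Number of tested transcripts (vertical axis) by the range between the means of the 3 pairs in log2(FPKM + 1) (horizontal axis); vertical lines mark the 7 ligands tested. Gdf11 and Inhba, at 0.22 and 0.23, lie left of the median of 0.31, while Bmp2 at 1.20 and Bmp4 at 1.80 lie in the upper tail.

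Pair by pair, Inhbb had the widest range of the 10. Pair C averaged 4.799 FPKM of Inhbb, against 0.530 FPKM in pair A and 0.304 FPKM in pair B, which is 9.05 and 15.8 times as much. In the fit without a filter, which holds Inhbb, pair C exceeded pair A by 1.92 ± 0.12 (SE) and pair B by 2.16 ± 0.12 on the log2 scale. The adjusted p of the code was 0.00091 in this limma fit, which called 28.7% of 14171 transcripts. Limma with voom on transcripts of at least 10 recovered reads gave Inhbb an adjusted p of 1.8e-07 and called 51.4% of 11658 transcripts. Gdf10 was called in the limma fit without a filter (adjusted p = 0.036) on 1 to 33 reads per library, with 0.43 ± 0.097 for pair C minus pair A.

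Bmp4 was lowest in pair B and highest in pair C. Pair C averaged 5.96 FPKM of Bmp4 and pair A 4.18 FPKM, against 1.02 FPKM in pair B. On the log2 scale pair C minus pair B was 1.80 ± 0.16 and pair B minus pair A was -1.37 ± 0.16. Bmp2 separated pair C from both others, by 0.87 ± 0.17 from pair A and by 1.20 ± 0.17 from pair B. Bmp6 separated pair A, with pair C minus pair A at -0.75 ± 0.15 and pair B minus pair A at -0.50 ± 0.15. Bmp7 was higher in pair B, by 0.42 ± 0.12 than in pair A, and pair C minus pair B was -0.51 ± 0.12. The BMP ligands therefore did not follow 1 common order across the codes.

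Some markers of other cells ran in the order of these differences. For Bmp4, the pair means of the microglial gene Aif1 were 21.7 (A), 2.08 (B) and 30.8 FPKM (C), and those of Acta2, a smooth-muscle actin of mural cells, 77.0, 8.55 and 113 FPKM. Both have the order of Bmp4. The order is not limited to markers of other cells, since the RGC marker Thy1 had pair means of 202, 143 and 258 FPKM. No other RGC marker of the list was both lowest in pair B and highest in pair C. All 13 tested microglia and macrophage markers and all 5 tested endothelial, mural and fibroblast markers were called between codes. The 12 genes of the second list summed to 14.7 to 167 FPKM in Chrdl1 libraries and 22.3 to 169.6 FPKM in vehicle libraries, lowest in pair B each time. Acta2 weighed most in that sum, with 110.3 FPKM in the Chrdl1 library of pair C. The endothelial gene Kdr was lowest in pair A instead, with pair means of 1.32, 2.08 and 4.41 FPKM, while the other tested genes of that list were lowest in pair B. Pecam1 and Cdh5, also endothelial, were at no more than 0.397 and 0.114 FPKM in any library. Within those lists Cx3cr1, a defining microglial receptor, was at 0 in 4 of 6 libraries, and Col1a2 was at 0 in all 6. For Inhbb, the pair means of Crx, a photoreceptor and bipolar transcription factor, were 4.21 (A), 2.27 (B) and 44.9 FPKM (C). The fibroblast gene Dcn was at 4.76 and 5.21 FPKM in the Chrdl1 and vehicle library of pair C and at 0 in the other 4. Summed over 14 amacrine, bipolar and photoreceptor markers the level was 68.8, 79.9 and 158 FPKM in the Chrdl1 libraries (pairs A, B, C) and 72.0, 81.7 and 151 FPKM in the vehicle libraries. The 10 astrocyte and Muller glia markers summed to 69.0 to 150.3 FPKM in Chrdl1 libraries and 80.6 to 162 FPKM in vehicle libraries, highest in pair C, with Aqp4 at 0 in 5 of 6 libraries. Most of that sum came from Glul and Vim, at 76.8 and 64.7 FPKM in the Chrdl1 library of pair C. Only 3 of the 10 passed the filter, so the sum is not a measure of glial content. The part of any of these cells in the ligand differences was not tested.

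**Figure D4:**
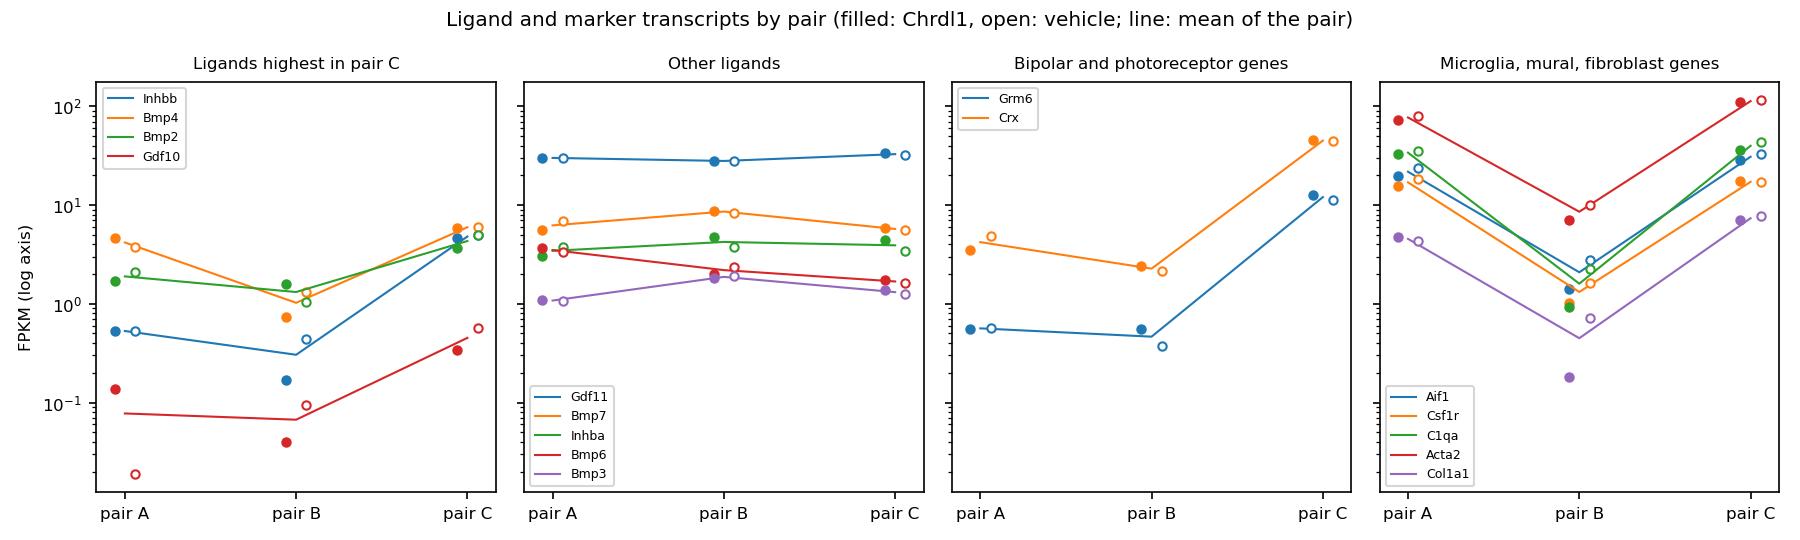
FPKM (vertical log axis) by pair. The panels hold Inhbb, Bmp4, Bmp2 and Gdf10, the other ligands above the detection limit, bipolar and photoreceptor genes, and microglia, mural and fibroblast genes. Filled circles are Chrdl1 libraries, open circles vehicle libraries and lines the mean of the pair. Inhbb (4.799 FPKM in pair C, 0.530 and 0.304 in pairs A and B) is highest in pair C, as Grm6 and Crx are. Bmp4 is lowest in pair B (1.02 FPKM), as Aif1 and Acta2 are. Gdf11, drawn with the other ligands, is also lowest in pair B and highest in pair C, but stays between 27.8 and 33.3 FPKM.

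Transcripts whose levels ran most like a ligand were ranked by the root-mean-square difference of log2(FPKM + 1) over the 6 libraries, each centred on its own mean. Bmp4 was nearest to Spon2, Evi2a and Apbb1ip, at 0.11 each, and Bmp2 to Csf2ra (0.086), Scarb1 (0.089) and Dram1 (0.096). Inhbb, added to this ranking after its values were seen, was nearest to Mgarp (0.071), C1s (0.11) and Sulf1 (0.11). Spon2 for instance was at 3.43, 0.454 and 4.38 FPKM in the Chrdl1 libraries (pairs A, B, C) and 2.64, 0.515 and 4.51 FPKM in the vehicle libraries. The 6 libraries form 3 pairs, so likeness here rests on the 3 codes for the most part.

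Promoter sequence was available for 8 of the 10 ligands from RefSeq on GRCr8, as 250 bases before to 50 after the gene start; the expression table is on rn6. Those of Inhbb and Bmp4, the ligands with the widest ranges between codes, are shown beside those of Gdf11 and Inhba, which had the narrowest ranges among the 7 ligands that passed the filter. They run 5′ to 3′ along the gene's strand, and capitals mark matches to any of 8 motifs searched on both strands. The 4 windows are the minus strand of chr13:33089324-33089623 (Inhbb), chr15:22101884-22102183 (Bmp4), chr7:1905173-1905472 (Gdf11) and chr17:53804459-53804758 (Inhba).
Inhbb: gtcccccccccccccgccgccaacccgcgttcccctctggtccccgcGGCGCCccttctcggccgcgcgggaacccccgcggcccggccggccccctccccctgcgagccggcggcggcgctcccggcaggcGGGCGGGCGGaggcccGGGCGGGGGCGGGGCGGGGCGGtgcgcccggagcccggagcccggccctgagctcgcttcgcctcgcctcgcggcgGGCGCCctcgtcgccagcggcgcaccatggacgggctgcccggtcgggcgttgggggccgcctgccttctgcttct
Bmp4: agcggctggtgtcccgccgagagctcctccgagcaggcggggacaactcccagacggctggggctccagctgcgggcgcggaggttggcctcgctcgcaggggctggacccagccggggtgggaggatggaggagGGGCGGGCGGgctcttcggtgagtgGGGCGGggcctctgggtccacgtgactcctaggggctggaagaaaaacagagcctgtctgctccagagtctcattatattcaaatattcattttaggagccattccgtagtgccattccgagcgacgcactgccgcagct
Gdf11: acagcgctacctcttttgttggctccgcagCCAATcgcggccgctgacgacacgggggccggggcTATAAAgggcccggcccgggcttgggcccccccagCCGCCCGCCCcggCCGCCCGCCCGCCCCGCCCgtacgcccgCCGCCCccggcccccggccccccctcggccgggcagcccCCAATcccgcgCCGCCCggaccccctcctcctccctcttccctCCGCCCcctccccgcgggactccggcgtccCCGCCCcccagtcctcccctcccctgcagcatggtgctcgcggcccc
Inhba: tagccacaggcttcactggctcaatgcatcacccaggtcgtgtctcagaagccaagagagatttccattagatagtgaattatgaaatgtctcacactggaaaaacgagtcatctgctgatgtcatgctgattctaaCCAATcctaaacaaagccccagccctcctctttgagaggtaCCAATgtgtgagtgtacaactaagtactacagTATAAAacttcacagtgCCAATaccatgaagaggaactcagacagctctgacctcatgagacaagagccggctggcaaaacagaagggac

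The GC box GGGCGG, which is in 33.1% of 33469 rat promoters of the same length, matched 6 times in Inhbb, 3 times in Bmp4, 10 times in Gdf11 and 0 times in Inhba, counting overlapping matches. The TATA box TATAAA, in 14.2% of promoters, matched in Gdf11, 185 bases before the start, and in Inhba, 40 bases before it. CCAAT, in 37.5%, matched 2 times in Gdf11 and 3 times in Inhba. GGCGCC, a GC-rich sequence bound by Smads, is in 11.02% of promoters and matched 2 times in Inhbb. The other motifs had no match in these 4 windows: the cAMP response element TGACGTCA (in 1.83% of promoters), the AP-1 site TGANTCA (7.33%), the Smad palindrome GTCTAGAC (0.197%) and the CRX site TAATCC (7.17%). The wide-ranging Inhbb and the narrow-ranging Gdf11 were both GC-rich, at 84.3% and 80.7%, while Bmp4 was at 65% and Inhba at 45.7%, against a median of 51.7% over all promoters. In Inhbb the bases at the annotated start read ATG, a start codon, so this start may be that of translation rather than of transcription. Its matches may then lie within the transcript, which was not tested. Matches describe letters in a window and show no binding.

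The rest of the pathway gave the same count for the treatment. Of the other TGF-beta superfamily ligands 7 were tested and 0 rose or fell (median log2 fold change -0.14). Tgfb1 had -0.32 ± 0.29 and was lower with Chrdl1 in all 3 pairs, at 6.51 ± 2.06 FPKM in Chrdl1 libraries and 8.40 ± 2.80 FPKM in vehicle libraries (n = 3 each). With the replicate block its limma adjusted p was 0.779, and 19.5% of all tested transcripts were lower in all 3 pairs. The microglia and macrophage markers lay the same way: 13 of 13 tested had a negative log2 fold change, with a median of -0.35 and 9 of one direction in all 3 pairs, and 0 were called. Their part in the Tgfb1 values was not tested. Gdf1 had -0.14 ± 0.12, but the table lists it with the same coordinates as Cers1, so the 2 genes cannot be told apart. Among the 11 tested receptors and co-receptors 0 were called (median -0.019); Bmpr2, the main BMP type II receptor, was at 35.1 ± 0.924 FPKM in Chrdl1 libraries and 32.0 ± 6.62 FPKM in vehicle libraries, and Acvr2b, an activin type II receptor, had -0.17 ± 0.16. Of 14 secreted antagonists and modulators 0 were called (median -0.031), with Htra1, a secreted protease, at -0.087 ± 0.081 and Nbl1, a DAN-family antagonist, at -0.16 ± 0.31. The 6 tested proteases that process the precursors or cleave chordin gave 0 calls (median -0.020), including Bmp1, a tolloid protease and no ligand despite its name, at 0.13 ± 0.16, and Pcsk5 at -0.12 ± 0.17. The 14 tested Smads and direct BMP targets gave 0 calls (median 0.020), with Smad4, the shared Smad, at 0.11 ± 0.10 and Id4 at 0.15 ± 0.18. These genes were picked by the fit without the block. With the replicate block, 3 of the 14 Smads and targets had an unadjusted limma p under 0.05, against 5.15% of all tested transcripts, and none was called. These 3 were other direct targets and were chosen after their values were seen. Id1, an inhibitor of basic helix-loop-helix factors like Id2 and Id3, was higher with Chrdl1 by 0.40, 0.32 and 0.10 in pairs A, B and C on the log2 scale (limma block adjusted p = 0.829). Id2 was higher by 0.33, 0.25 and 0.017 (0.872), whereas Id3 had differences of -0.11, -0.095 and -0.33 (0.872). Of the 14 genes 5 had one direction in all 3 pairs, against 27.1% of all tested transcripts. Between codes, 6 of the 7 other ligands were called, 5 of the 11 receptors, 10 of the 14 antagonists, 3 of the 6 proteases and 7 of the 14 Smads and targets, against 47.4% of all tested transcripts.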

How the data were processed

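Polyadenylated RNA of 6 libraries was measured, 3 with Chrdl1 and 3 with vehicle. FastQC, STAR 2.4.0k, HOMER 4.8.3 and the build rn6 are named in the submitters' processing notes; annotation release, read filters and use of strand in counting are not stated in the sources at hand. The libraries were made with a stranded mRNA kit, per the labels' protocols. The authors deposited FPKM values per transcript. Reads were recovered from the FPKM steps: 98.8% to 99.7% of the values above 0 that could be checked were whole numbers of reads within rounding of 0.0005 FPKM, where 3.88% to 6.66% would be by chance. Of the reads, 62.7% to 65.8% fell on listed transcripts.

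Transcripts with at least 1 FPKM in at least 3 libraries went into limma 3.58.1 under R 4.3.3 (two-sided, mean-variance trend) on log2(FPKM + 1), with Benjamini-Hochberg adjustment over all of them. The code F test added the title code. Deviations from group means correlated at 0.823, 0.86 and 0.842 between libraries sharing a code, so the codes were taken to pair the libraries. Alternatives were a pseudocount of 0.1, no filter, quantile normalization, voom on recovered reads with trimmed-mean factors, leaving out libraries or codes, the replicate block and removal of the length trend. Scripts were tested on simulated data and used Python 3.11.15, numpy 2.4.6, pandas 2.3.3 and scipy 1.17.1. Named genes were the 10 ligands, marker genes and the 2 tested genes of each pathway list with the smallest unadjusted p. The 3 transcripts most like a ligand whose log2(FPKM + 1) spanned over 1 were named too. Aif1, Acta2, Crx, Grm6, Dcn, Thy1 and the zeros in marker lists were singled out after their values were seen. Grem1, Fst and endogenous Chrdl1 were also named outside the rule for the pathway lists. The members and lists were chosen with earlier results of these data known.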

Additional observations from a re-analysis of the deposited data

How the results depend on the processing

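No ligand was called for Chrdl1 under any alternative run (smallest adjusted p 0.774 and smallest unadjusted p 0.059, among 138 values), and signs of these small estimates were unstable. Dropping a single library, after which the groups no longer hold the same codes, gave log2 fold changes from -0.43 to 0.34 for Bmp2, -0.092 to 0.17 for Bmp3, -0.51 to 0.54 for Bmp4, -0.22 to 0.19 for Bmp6, -0.21 to 0.096 for Bmp7, -0.059 to 0.068 for Gdf11 and 0.015 to 0.26 for Inhba; Bmpr2 ran from -0.016 to 0.28, Bmp1 from -0.039 to 0.26 and Nbl1 from -0.38 to 0.13. With voom Bmp7 turned to 0.027, and to 0.036 with all transcripts of at least 10 reads in 3 libraries; with voom and the replicate block Bmp4 turned to 0.046 and 0.062. With the block on only 2 pairs, Bmp6 (-0.042) and Bmp7 (0.070) turned without pair A, Bmp4 (0.095) and Bmp1 (-0.017) without pair B, and Bmp2 (0.063), Bmp3 (-0.011), Bmp6 (-0.019), Gdf11 (-0.012) and Bmpr2 (-0.0050) without pair C. The cause was not tested. The block changed no call of a ligand. Over all transcripts 0 were called for Chrdl1 except with the block and without pair A (18) or pair B (32), in fits on 4 libraries.

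Between codes, leaving out 1 library gave 3115 calls (without the Chrdl1 library of pair A) to 5561 (without the Chrdl1 library of pair C) against 4930, and 3265 without the vehicle library of pair A. Among the ligands 3 to 4 were called, Bmp6 being lost without the Chrdl1 library of pair A (adjusted p = 0.077) and Bmp7 without that of pair B (0.057) and without a filter (0.060); quantile normalization called Bmp3 (0.013). The block with no filter, and voom under the block on transcripts of at least 10 reads, were chosen after seeing the data. Depth limits Inhbb (12 to 40 reads outside pair C), Bmp4 in pair B (26 and 29 reads), Gdf10 and Bmp5.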

Other observations

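Several superfamily ligands outside the 10 were more abundant than most of them; these were chosen after their values were seen. Mstn (myostatin), the closest relative of Gdf11, was at 18.0, 14.4 and 11.4 FPKM with Chrdl1 (pairs A, B, C) and at 18.7, 14.5 and 12.9 FPKM in the vehicle libraries, below Gdf11 in 6 of 6 libraries. Inha, whose product pairs with the activin beta subunits to form inhibins, was at 8.60, 14.8 and 9.89 FPKM in the Chrdl1 libraries and 9.60, 13.0 and 10.2 FPKM in the vehicle libraries. It was above Inhba and above Inhbb in 6 of 6 libraries each. Gdf15, a stress-responsive ligand, was at 10.8, 3.80 and 27.1 FPKM in the Chrdl1 libraries and 11.1, 5.75 and 34.3 FPKM in the vehicle libraries, lowest in pair B and highest in pair C as Bmp4 was.

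Antagonists of the ligands also varied with the codes. Grem1 (gremlin 1), which binds Bmp2, Bmp4 and Bmp7, was at 8.71, 5.52 and 49.0 FPKM in the Chrdl1 libraries and 9.71, 7.59 and 42.1 FPKM in the vehicle libraries. Fst (follistatin), which binds activins, was at 1.62, 1.06 and 3.86 FPKM in the Chrdl1 libraries and 1.39, 0.669 and 3.92 FPKM in the vehicle libraries. Both were highest in pair C, as Inhbb and Bmp2 were. Endogenous Chrdl1 transcript was at 0.230, 0.235 and 0.252 FPKM in the Chrdl1 libraries and 0.130, 0.302 and 0.267 FPKM in the vehicle libraries, below every ligand that passed the filter.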
